A study of Mus musculus with 8 samples.

Results

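The genes described here are the HERPUD pair, Herpud1 and Herpud2, and 8 further genes of endoplasmic reticulum (ER) stress, Hspa5, Hsp90b1, Dnajb9, Atf6, Xbp1, Atf4, Ddit3 and Atf3. They were chosen by symbol, and the 10 symbols take up 11 of the 22274 gene entries, because Ddit3 is listed under a second identifier. RNA of primary murine cardiac fibroblasts, cells isolated from mouse heart that make its collagen matrix, was sequenced in 4 libraries labelled GFP and 4 labelled OEIRF7. The GFP cells had received an adenovirus with an empty vector and the OEIRF7 cells an adenovirus for the interferon regulatory factor IRF7. Exposure to TGF-β was at 5 ng/ml for 24 h in both groups. The cells of both groups carried a virus and had received the cytokine that turns fibroblasts into myofibroblasts, and there was no group without either. In the series description the virus is adeno-associated. A reagent list gives a human IRF7 driven by the CMV promoter, which is active in most cell types, for the adenovirus. For an adeno-associated virus the same list gives a mouse Irf7 driven by the periostin promoter. A legend gives 3 biological replicates for this experiment, where 4 libraries per group are labelled. The sources do not say which libraries came from separate mice or cultures, so p-values measure only the spread between these libraries, which may be technical.

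Proteins that enter the ER fold there with the help of chaperones, and an excess of unfolded protein sets off the unfolded protein response. Its sensors sit in the ER membrane: IRE1 (Ern1) splices the messenger of Xbp1 into that of an active transcription factor, PERK (Eif2ak3) slows translation and thereby favours ATF4, and ATF6 is cut in the Golgi to release a transcription factor. Their targets include chaperones, the machinery of ER-associated degradation to which the HERPUD proteins belong, and, through ATF4, the factors CHOP (Ddit3) and ATF3. Fibroblasts that secrete collagen send a large flow of protein through this compartment.

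The total count of reads on genes lay between 24888589 and 27095611 in the libraries labelled GFP and between 24454801 and 28658826 in those labelled OEIRF7. Mouse Irf7 had 2861, 3680, 2272 and 3291 counts in the libraries labelled GFP and 385, 421, 380 and 404 in those labelled OEIRF7, so its count was lower in every library labelled for IRF7 overexpression (log2 fold change -2.96, SE 0.121, edgeR adjusted p = 7.7e-11). The count is of the mouse gene, and a human transcript was not counted here. Whether these cells carried the human or the mouse insert of the reagent list was not tested. Because the lower count goes against the label, directions below are stated for the libraries labelled OEIRF7 against those labelled GFP. Summed fibroblast markers lay between 13395 and 14114 CPM (counts scaled to library size) in the GFP libraries and between 11796 and 12388 CPM in the OEIRF7 libraries. By edgeR at an adjusted p under 0.05, 6 of the 9 fibroblast markers were lower and 1 was higher. Of all genes tested, 29.9% were lower and 29.0% higher, shares that also stand beside the marker counts that follow. Summed markers were 264 to 314 against 335 to 371 CPM for macrophages (4 of 6 markers higher, none lower), 68.9 to 76.0 against 79.0 to 98.8 CPM for mural cells (2 higher and 2 lower of 5 tested), 203 to 216 against 206 to 231 CPM for endothelial cells (3 higher and 1 lower of 6) and 9.92 to 13.5 against 7.42 to 9.69 CPM for cardiomyocytes, of whose 7 markers 1, Tnnt2, passed the filter on low counts and was lower. No marker was at 0 in all libraries, but Myh6, Myh7, Actc1 and Nppa had 3 counts or fewer in every library and Kcnj8 5 or fewer. The sums are led by a few abundant genes. Among mural markers Cspg4 rose from 22.4 to 63.3 CPM, while Notch3 fell from 41.4 to 13.6 CPM and Myh11 from 3.47 to 1.76 CPM. Lyz2 was the most abundant macrophage marker (202 and 235 CPM), and Ptprc and Csf1r did not pass the test (edgeR adjusted p = 0.64 and 0.54). Col1a1 led the fibroblast sum (4561 and 4070 CPM), and Pdgfra was the fibroblast marker that rose. The part that cells other than fibroblasts have in the results below was not tested. In RNA of a mixed culture fewer cells of a type and less RNA per cell cannot be told apart.

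Some of the 10 genes carry in their promoters the DNA elements through which the response is known to act, and these elements are shown because they differ between genes that are otherwise treated as a set. RefSeq promoter windows of GRCm38.p6, from 250 bases before to 50 bases after the start of transcription, were available for 9 of the 10 genes, Atf6 having none. They were searched on both strands for the ER stress response element ERSE (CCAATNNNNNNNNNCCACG), for ERSE-II (ATTGGNCCACG), for the core of the unfolded protein response element UPRE (TGACGTGG), for the element bound by C/EBP and ATF factors (TGATGCAA), for the cAMP response element CRE (TGACGTCA) and for a core of the interferon-stimulated response element ISRE (GAAANNGAAA), to which interferon regulatory factors bind. The matches are in capitals, with 5 bases on each side, 5′ to 3′ on the strand of the gene.
Hspa5 ERSE, chr2:34772020-34772048, + strand: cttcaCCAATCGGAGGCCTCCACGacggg
Hsp90b1 ERSE, chr10:86705633-86705661, - strand: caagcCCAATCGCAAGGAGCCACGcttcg
Hsp90b1 ERSE in reverse, chr10:86705528-86705556, - strand: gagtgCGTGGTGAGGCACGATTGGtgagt
Herpud1 ERSE-II, chr8:94386372-94386392, + strand: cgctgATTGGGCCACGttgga
Herpud1 C/EBP-ATF element in reverse, chr8:94386312-94386329, + strand: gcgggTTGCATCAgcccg
Atf3 C/EBP-ATF element in reverse, chr1:191183431-191183448, - strand: cgcacTTGCATCAccaag
Counted from the RefSeq start of transcription, the first capital lies at -65 in Hspa5, at -212 and -107 in Hsp90b1 and at -110 in Atf3. In Herpud1 it lies at -52 (ERSE-II) and -112 (C/EBP-ATF). The GENCODE coordinates given below begin further upstream for Hspa5 and Atf3, so both matches lie inside those genes as given there. The 1 window of Atf3 is at a start within its GENCODE gene, and the outermost start was not searched. Of all 32851 windows in the table, 0.119% hold the ERSE, 0.0365% the ERSE-II, 0.895% the C/EBP-ATF element, 0.676% the UPRE core, 1.79% the CRE and 3.44% the ISRE core. The windows of Herpud2, Dnajb9, Xbp1, Atf4 and Ddit3 hold none of these letter strings, and no UPRE core, CRE or ISRE core was found in any of the 9 windows. A match describes the letters alone and says nothing about whether a factor was bound in these cells. The lack of a match covers only these exact letters in these windows. Elements further away or with other letters were not searched.

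In the comparison of the groups, Hspa5 and Atf3 were higher and Herpud2 was lower in the libraries labelled OEIRF7 by more than 1.5-fold, Xbp1 and Ddit3 were higher by smaller steps, and Herpud1, Hsp90b1, Dnajb9, Atf4 and Atf6 did not pass the test. By edgeR's quasi-likelihood test at an adjusted p under 0.05, 4 of the 10 genes were higher and 1 was lower. Of all 13533 genes tested, 29.0% were higher and 29.9% lower, so these counts are not a result about the 10 genes as a set. With a fold change of over 1.5 as well, 2 were higher and 1 lower, against 9.26% and 9.64% of all genes. The 2 groups of libraries did not overlap for 5 of the 10 genes, against 53.8% of all genes. The median log2 fold change was 0.05 over the 10 genes and 0.0015 over all genes tested. The libraries labelled OEIRF7 were also those with the lower summed fibroblast markers and the higher summed macrophage and mural markers given above. This holds beside each gene and gene group that follows, though not every marker of a type moved with its sum.

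**Figure D1:**
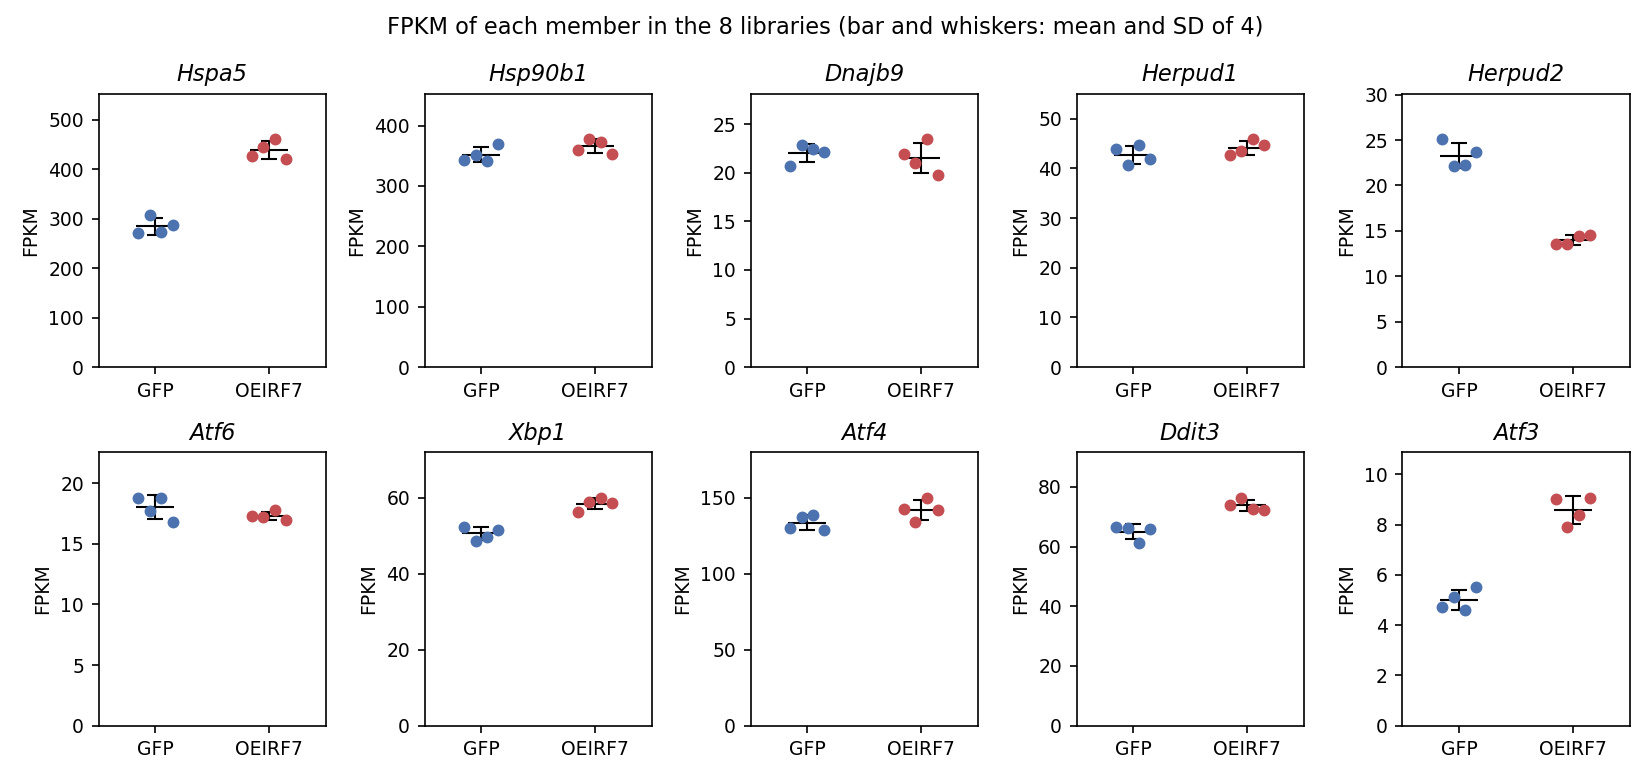
FPKM (fragments normalized for gene length and sequencing depth, vertical axes from 0) of each of the 10 genes in the 4 libraries labelled GFP (blue) and the 4 labelled OEIRF7 (red), with a bar and whiskers for mean and SD. The groups are apart for Hspa5, Herpud2, Xbp1, Ddit3 and Atf3 and overlap for the other 5 genes.

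Levels can be compared between genes on the FPKM scale, which divides by gene length. In the GFP libraries the order of mean FPKM was Hsp90b1, Hspa5, Atf4, Ddit3, Xbp1, Herpud1, Herpud2, Dnajb9, Atf6 and Atf3. The ranges of Herpud2 and Dnajb9 overlapped (22.1 to 25.1 and 20.7 to 22.9 FPKM), so their order is not settled, while the ranges of all other neighbours in that order were apart. Hsp90b1 stood at percentile 98.9 and Hspa5 at percentile 98.5 of all tested genes by mean FPKM, and Atf3 at percentile 39.5. In the OEIRF7 libraries Hspa5 and Hsp90b1 had changed places, and Herpud2 had dropped below Dnajb9 and Atf6.

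Of the 3 chaperones among the 10 genes, Hspa5 rose, and Hsp90b1 and Dnajb9 did not pass the test. Hspa5 (ENSMUSG00000026864, chr2:34771970-34777547, GRCm38, + strand) encodes BiP, the Hsp70 of the ER lumen that binds unfolded chains and holds the stress sensors inactive. Its levels were 272, 309, 273 and 288 FPKM in the GFP libraries and 427, 445, 461 and 421 FPKM in the OEIRF7 libraries. Every OEIRF7 library lay above every GFP library, with means of 285 ± 17.1 and 439 ± 18.3 FPKM (SD, n = 4). In counts the rise was 1.55-fold (log2 fold change 0.63, SE 0.033, edgeR adjusted p = 6.8e-10), and the exact two-sided permutation test over the 70 regroupings gave p = 0.029, the smallest it can give here. Of all tested genes, 18.5% had a larger log2 fold change in size.

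Hsp90b1 (ENSMUSG00000020048, chr10:86690209-86705509, - strand) encodes GRP94, the Hsp90 of the ER, whose clients include integrins and Toll-like receptors. Its levels were 343, 352, 342 and 369 FPKM in the GFP libraries and 359.7, 377, 373 and 352 FPKM in the OEIRF7 libraries. The groups overlapped, with means of 351 ± 12.5 and 366 ± 11.7 FPKM (SD, n = 4). The log2 fold change of 0.03 had a 95% interval from -0.04 to 0.10 (edgeR adjusted p = 0.45), which leaves out a change of the size seen for Hspa5.

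Dnajb9 (ENSMUSG00000014905, chr12:44205559-44210326, - strand) encodes ERdj4, a DnaJ co-chaperone of BiP and a well-known target of spliced XBP1. Its levels were 20.7, 22.9, 22.45 and 22.2 FPKM in the GFP libraries and 21.9, 20.96, 23.5 and 19.8 FPKM in the OEIRF7 libraries. The highest and the lowest of the 8 values both belong to OEIRF7 libraries, and the interval of the log2 fold change of -0.06 ran from -0.18 to 0.05 (edgeR adjusted p = 0.33).

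The HERPUD genes parted from each other. Herpud1 and Herpud2 encode ER membrane proteins with a ubiquitin-like domain, and HERPUD1 is a known part of the HRD1 complex that passes misfolded proteins to the proteasome. Herpud1 (ENSMUSG00000031770, chr8:94386438-94395377, + strand) had 43.8, 40.7, 44.7 and 41.8 FPKM in the GFP libraries and 42.6, 43.5, 45.9 and 44.6 FPKM in the OEIRF7 libraries. These ranges overlapped over most of their length, and the log2 fold change of 0.02 had an interval from -0.06 to 0.10 (edgeR adjusted p = 0.65). Herpud1 had the smallest change in size of the 10 genes, and 94.7% of all tested genes had a larger one.

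Herpud2 (ENSMUSG00000008429, chr9:25108132-25151820, - strand) had 25.1, 22.1, 22.3 and 23.65 FPKM in the GFP libraries and 13.55, 13.5, 14.45 and 14.6 FPKM in the OEIRF7 libraries. These values rest on 1891, 1548, 1542 and 1745 counts against 959, 1077, 1022 and 991 counts. Every OEIRF7 library lay below every GFP library, and the means were 23.3 ± 1.39 and 14.0 ± 0.568 FPKM (SD, n = 4). The fall was 1.69-fold (log2 fold change -0.76, SE 0.050, edgeR adjusted p = 9.7e-09, exact permutation p = 0.029) and was the only fall among the 10 genes past the test. In size it was exceeded by 13.7% of all tested genes.

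**Figure D2:**
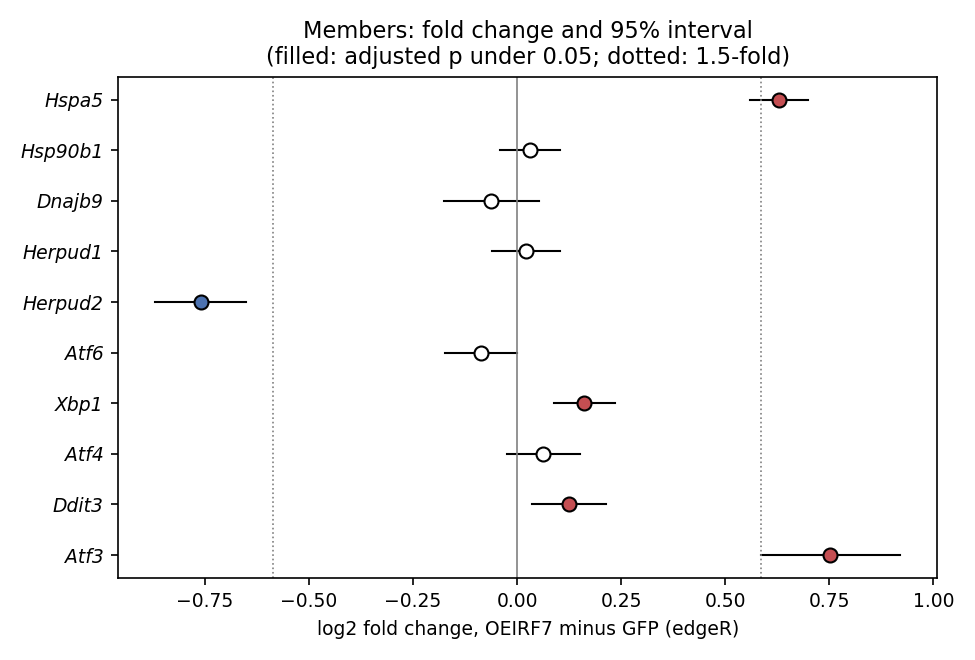
Log2 fold change of the 10 genes, libraries labelled OEIRF7 minus those labelled GFP (horizontal axis), with 95% intervals from edgeR, filled where the adjusted p is under 0.05, and dotted lines at 1.5-fold. Herpud2 at -0.76 stands apart on the left, Atf3 at 0.75 and Hspa5 at 0.63 on the right, and Herpud1 lies at 0.02.

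Of the sensors and the factors that they activate, Xbp1 rose slightly. Xbp1 (ENSMUSG00000020484, chr11:5520659-5525893, + strand) had 52.3, 48.7, 49.8 and 51.6 FPKM in the GFP libraries and 56.4, 58.8, 60.05 and 58.6 FPKM in the OEIRF7 libraries. No library of the first group reached the second, and the rise was 1.12-fold (log2 fold change 0.16, SE 0.034, edgeR adjusted p = 0.00091, exact permutation p = 0.029). Counts per gene join the spliced and unspliced messengers, so the splicing by IRE1 could not be read from them. Atf6 (ENSMUSG00000026663, chr1:170704674-170867771, - strand), the sensor cut in the Golgi, had 18.8, 17.7, 18.8 and 16.8 FPKM in the GFP libraries and 17.3, 17.2, 17.8 and 17.0 FPKM in the OEIRF7 libraries. In FPKM the values of the OEIRF7 libraries lay inside the range of the GFP libraries. In CPM, OEIRF7 replicates 2 and 4 (123.1 and 122.1 CPM) lay below the lowest GFP library (123.3 CPM). The interval of the log2 fold change of -0.09 ran from -0.17 to 0.00080 (edgeR adjusted p = 0.082). Without GFP replicate 4, Atf6 passed the test (log2 fold change -0.12, edgeR adjusted p = 0.0184).

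In the branch of ATF4, the messenger of the factor itself did not pass the test while those of its known targets CHOP and ATF3 rose by unequal steps. Atf4 (ENSMUSG00000042406, chr15:80255184-80257541, + strand), whose protein is controlled mainly at translation, had 130.0, 137, 138 and 129 FPKM in the GFP libraries and 143, 134, 150.15 and 142 FPKM in the OEIRF7 libraries. The groups overlapped through OEIRF7 replicate 2, and the log2 fold change of 0.06 had an interval from -0.02 to 0.15 (edgeR adjusted p = 0.20).

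Ddit3 (ENSMUSG00000025408, chr10:127290774-127296288, + strand) encodes CHOP, a factor linked to cell death under lasting stress. Its levels were 66.6, 66.3, 61.2 and 65.8 FPKM in the GFP libraries and 74.1, 76.4, 72.55 and 72.2 FPKM in the OEIRF7 libraries. The groups did not overlap, and the rise was 1.09-fold (log2 fold change 0.12, SE 0.041, edgeR adjusted p = 0.017, exact permutation p = 0.029). The call was lost without GFP replicate 3 (log2 fold change 0.10, edgeR adjusted p = 0.0638) and without OEIRF7 replicate 2 (log2 fold change 0.11, edgeR adjusted p = 0.0565). The second identifier of Ddit3, ENSMUSG00000116429, had 1, 3, 0 and 0 counts against 2, 0, 4 and 0 counts and was not tested. It shares 105 of the 1713 exonic bases of Ddit3, or 6.13%, and 68 bases, or 3.97%, overlap Mars on the opposite strand, and reads there are uncertain in the counting.

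Atf3 (ENSMUSG00000026628, chr1:191170296-191218039, - strand) encodes a stress-induced factor of the AP-1 and ATF families and had the lowest level of the 10 genes. It had 4.72, 5.11, 4.62 and 5.53 FPKM in the GFP libraries and 9.01, 7.90, 8.38 and 9.07 FPKM in the OEIRF7 libraries, from 254, 255, 228 and 291 against 455, 449, 422 and 440 counts. The groups were far apart against their spread, with means of 4.995 ± 0.415 and 8.59 ± 0.556 FPKM (SD, n = 4). The rise was 1.68-fold (log2 fold change 0.75, SE 0.078, edgeR adjusted p = 1.1e-06, exact permutation p = 0.029).

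Ratios between genes of the same library do not depend on how libraries are scaled, and 4 of them were formed after the counts had been seen. They pair genes already seen to differ in their change, so they are a description, with no test. The ratio of Herpud1 to Herpud2 was 1.75, 1.84, 2.01 and 1.77 in the GFP libraries and 3.14, 3.22, 3.17 and 3.06 in the OEIRF7 libraries. The means were 1.84 ± 0.118 and 3.15 ± 0.0668 (SD, n = 4), without overlap. The ratio of Hspa5 to Hsp90b1, both genes with an exact ERSE in the window searched, was 0.793, 0.877, 0.799 and 0.779 in the GFP libraries and 1.186, 1.18, 1.235 and 1.195 in the OEIRF7 libraries. Hspa5 was below Hsp90b1 in every GFP library and above it in every OEIRF7 library. The ratio of Hspa5 to Dnajb9 went from 12.9 ± 0.558 to 20.4 ± 0.989 without overlap (SD, n = 4). The ratio of Atf4 to Ddit3 was 2.06 ± 0.145 and 1.93 ± 0.131 (SD, n = 4), which overlapped.

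**Figure D3:**
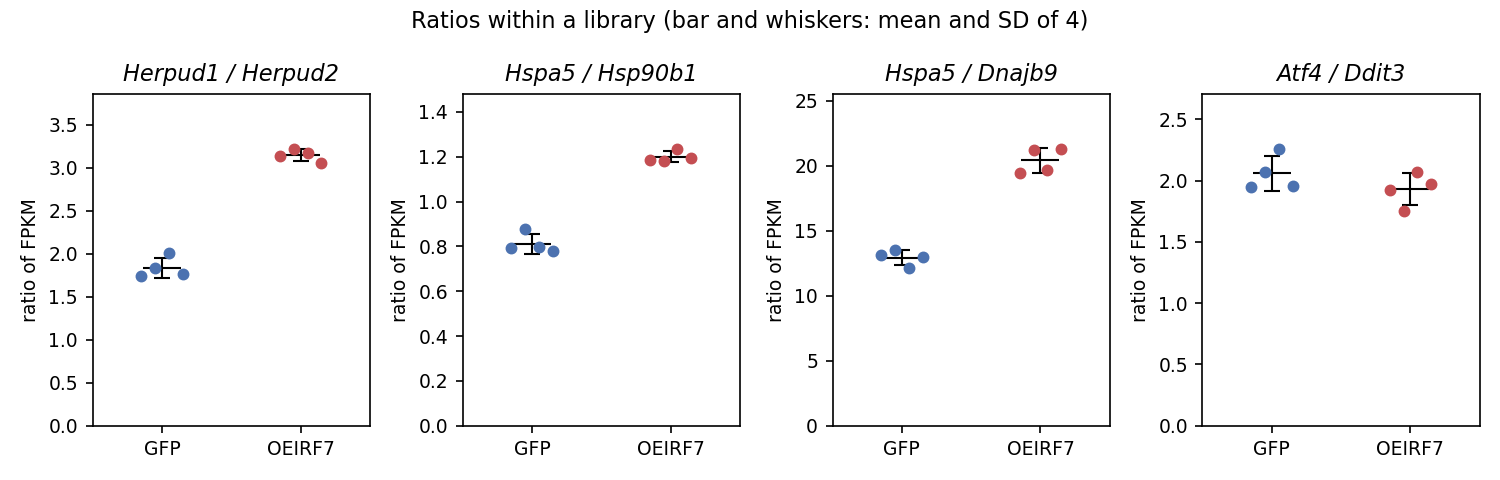
Ratios of FPKM between genes of the same library (vertical axes from 0, no unit) in the 4 libraries labelled GFP (blue) and the 4 labelled OEIRF7 (red), with a bar and whiskers for mean and SD. Herpud1 over Herpud2 lies at 1.84 on average in the GFP libraries and at 3.15 in the OEIRF7 libraries, and Atf4 over Ddit3 overlaps between the groups.

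Around these 10 genes, 6 lists of the wider pathway held 135 genes, of which 134 were tested, 62 (46.3%) were higher and 32 (23.9%) lower, against 29.0% and 29.9% of all genes tested, with a median log2 fold change of 0.09. The count of lower genes was 24 with scaling by library size alone, and 21 and 20 with limma on log2(FPKM + 1) and log2(FPKM + 0.1). Library size alone also moved the counts over all 13533 genes, from 3924 to 4346 higher and from 4045 to 3728 lower. Without the 10 genes and without the heat shock proteins outside the ER, 49 of 108 were higher and 26 lower. With a fold change of over 1.5 as well, 10 of the 134 genes were higher and 5 lower, against 9.26% and 9.64% of all genes. The lists are described by counts alone and were not tested as sets. Among the 159 tested genes that the table's own annotation assigns to the KEGG pathway of protein processing in the ER, 63 (39.6%) were higher and 44 (27.7%) lower, with a median of 0.06, and the lower share is near the 29.9% of all genes.

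**Figure D4:**
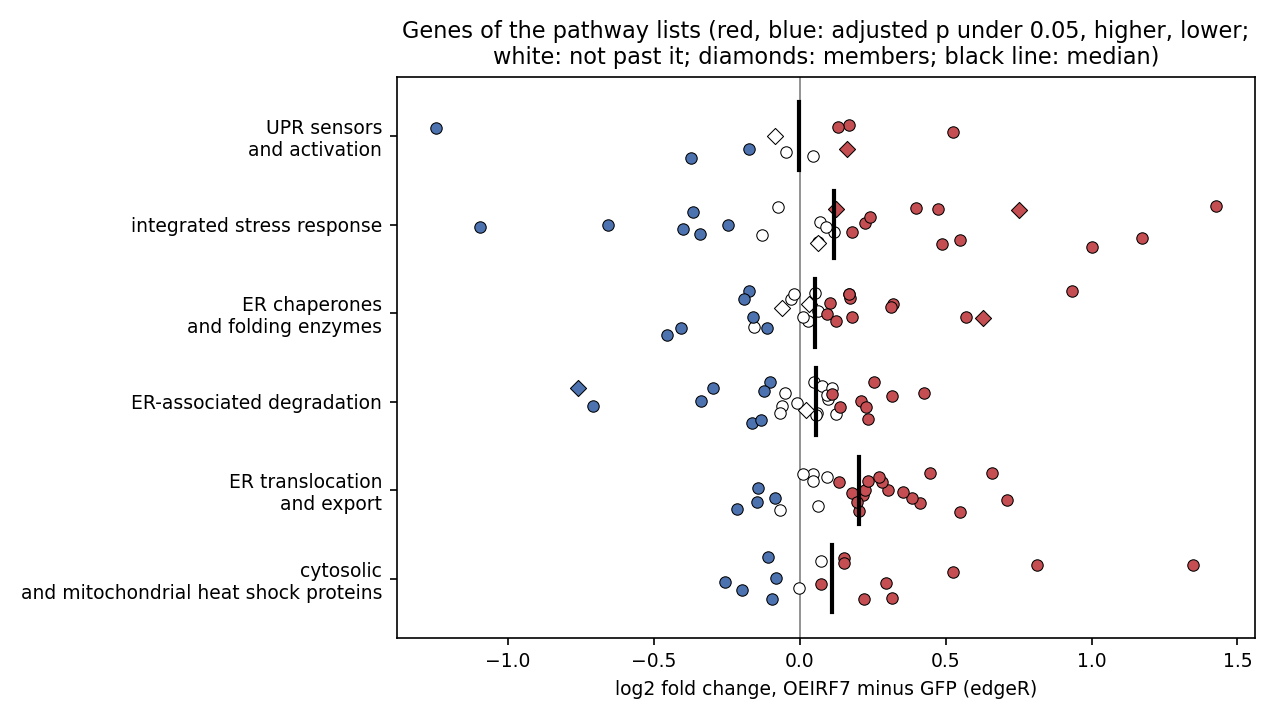
Log2 fold change from edgeR, libraries labelled OEIRF7 minus those labelled GFP (horizontal axis), of every tested gene in 6 pathway lists, red where higher and blue where lower at an adjusted p under 0.05, diamonds for the 10 genes and black lines for list medians. ER translocation and export has the highest median, 0.20, and ER-associated degradation lies near 0 with 8 genes higher and 8 lower.

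The list of sensors and their activation had 4 of 10 genes (40%) higher and 3 (30%) lower, against 29.0% and 29.9% of all genes, with a median log2 fold change of -0.00088. Ern1, which encodes IRE1, had 71.8 ± 1.90 CPM in the GFP libraries and 103 ± 3.57 CPM in the OEIRF7 libraries (SD, n = 4, log2 fold change 0.52, SE 0.038, edgeR adjusted p = 2.2e-08). Eif2ak3, which encodes PERK, had 85.7 ± 2.59 and 96.4 ± 5.35 CPM (log2 fold change 0.17, edgeR adjusted p = 0.0036). Both rose, and neither reached 1.5-fold. Atf6b, the paralog of Atf6, fell from 62.2 ± 2.59 to 26.2 ± 1.91 CPM (log2 fold change -1.25, SE 0.054, edgeR adjusted p = 1.3e-10), where Atf6 itself did not pass the test. Creb3l1, which encodes OASIS, a factor cut like ATF6 and known from collagen-producing cells, fell from 46.2 ± 2.08 to 35.8 ± 5.35 CPM (log2 fold change -0.37, edgeR adjusted p = 0.0011).

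The list of the integrated stress response had 12 of 25 genes (48%) higher and 6 (24%) lower, against 29.0% and 29.9% of all genes. Its median was 0.12. Past 1.5-fold as well, 4 of the 25 genes were higher and 2 lower, against 9.26% and 9.64% of all genes. Slc7a11, the cystine transporter, rose from 15.6 ± 0.720 to 41.8 ± 2.48 CPM (log2 fold change 1.43, SE 0.059, edgeR adjusted p = 7.8e-11). Gdf15, a secreted stress cytokine, rose from 15.6 ± 1.04 to 31.2 ± 1.90 CPM (log2 fold change 1.001, edgeR adjusted p = 7.8e-09). Cebpb, a C/EBP factor that pairs with ATF4, had 10.9 ± 0.692 and 24.7 ± 0.389 CPM (log2 fold change 1.17, edgeR adjusted p = 8.5e-10). This rise is uncertain in its source because 20.7% of the exonic bases of Cebpb overlap Tmem189 on the opposite strand, and the strand setting of the counting is not stated. Stc2, a secreted glycoprotein that ATF4 is known to induce, went the other way, from 59.3 ± 5.10 to 27.8 ± 5.23 CPM (log2 fold change -1.10, SE 0.101, edgeR adjusted p = 3.0e-07). Further genes of this list were singled out after their values were seen. Chac1 and Asns fell (log2 fold change -0.66 and -0.34, edgeR adjusted p = 2.8e-06 and 7.5e-07), and Trib3 did not pass the test (-0.13, edgeR adjusted p = 0.24). Ppp1r15a, Vldlr and Ddit4 rose by log2 fold changes of 0.55, 0.49 and 0.40 (edgeR adjusted p = 8.9e-08, 1.1e-05 and 6.8e-05). Genes picked in this way do not show in which direction the targets of ATF4 went as a group.

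The list of ER chaperones and folding enzymes had 12 of 27 genes (44.4%) higher and 6 (22.2%) lower. These stand against 29.0% and 29.9% of all genes. Its median was 0.05. Past 1.5-fold as well, 2 of the 27 genes were higher and 0 lower, against 9.26% and 9.64% of all genes. Ero1a, the oxidase that recharges protein disulfide isomerases, rose from 165 ± 5.62 to 316 ± 5.27 CPM (log2 fold change 0.93, SE 0.034, edgeR adjusted p = 2.4e-11). Of the disulfide isomerases, Pdia5 rose from 76.2 ± 1.05 to 113 ± 2.64 CPM (log2 fold change 0.57, edgeR adjusted p = 2.9e-09), and Pdia4 fell from 219 ± 5.31 to 160 ± 8.05 CPM (log2 fold change -0.46, edgeR adjusted p = 1.4e-07). Others of this kind were singled out after their values were seen. Pdia6 and P4hb rose (log2 fold change 0.31 and 0.17, edgeR adjusted p = 1.8e-06 and 3.4e-05). Pdia3 and Txndc5 did not pass the test (log2 fold change 0.01 and -0.02, edgeR adjusted p = 0.76 and 0.58). Cnpy2, a small ER protein, fell from 38.5 ± 3.81 to 29.1 ± 2.42 CPM (log2 fold change -0.41, edgeR adjusted p = 0.00026). Some partners of BiP in this list were singled out after their values were seen. Hyou1, Dnajc3 and Sil1 fell by 0.11, 0.17 and 0.19 on the log2 scale (edgeR adjusted p = 0.013, 0.00055 and 0.0075). Dnajc1 did not pass the test (log2 fold change -0.03, edgeR adjusted p = 0.60). Dnajb11, Dnajc10 and Sdf2l1 rose by log2 fold changes of 0.17, 0.10 and 0.32 (edgeR adjusted p = 0.00085, 0.0089 and 0.0034).

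In the list of ER-associated degradation, to which the HERPUD genes belong, 8 of 29 tested genes (27.6%) were higher and 8 (27.6%) lower, both near the shares of all genes, 29.0% and 29.9%. The median was 0.06, and Derl3 had too few counts for the test. Scaled by library size alone, 13 were higher and 6 lower, against 4346 and 3728 of all 13533 genes under that scaling. Ngly1, which strips sugars from proteins on their way to the proteasome, fell from 18.7 ± 1.15 to 11.4 ± 1.28 CPM (log2 fold change -0.71, SE 0.083, edgeR adjusted p = 3.7e-06). Sel1l, the adaptor of the HRD1 ubiquitin ligase, fell from 289 ± 5.42 to 229 ± 3.89 CPM (log2 fold change -0.34, edgeR adjusted p = 2.3e-07). Ube2j2 and Ube2g2, ubiquitin-conjugating enzymes of this route, rose by log2 fold changes of 0.43 and 0.32 (edgeR adjusted p = 2.6e-05 and 8.6e-06). Syvn1, the gene of HRD1 itself and singled out after its values were seen, rose from 63.7 ± 1.99 to 73.7 ± 1.85 CPM (log2 fold change 0.21, edgeR adjusted p = 0.00024).

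The list of ER translocation and export had 17 of 27 genes (63.0%) higher and 4 (14.8%) lower, against 29.0% and 29.9% of all genes, with a median of 0.20. The count of lower genes was 2 under library size alone (19 higher), under limma with either pseudocount, and without OEIRF7 replicate 1 or OEIRF7 replicate 4. Under library size alone, 4346 of all 13533 genes were higher and 3728 lower. Most steps were small: past 1.5-fold as well, 2 of the 27 were higher and 0 lower, against 9.26% and 9.64% of all genes. Ssr1 and Ssr2, subunits of the translocon-associated protein complex, rose from 310 ± 7.01 to 508 ± 11.6 CPM and from 106 ± 1.67 to 167 ± 3.46 CPM (log2 fold change 0.71 and 0.66, edgeR adjusted p = 1.2e-10 and 4.0e-10). Their partners Ssr3 and Ssr4 were singled out after their values were seen. Ssr3 fell from 810 ± 18.1 to 698 ± 6.33 CPM (log2 fold change -0.21, edgeR adjusted p = 8.5e-06). Ssr4 rose from 74.5 ± 4.97 to 81.8 ± 1.54 CPM (log2 fold change 0.14, edgeR adjusted p = 0.019). Sec11a, the catalytic subunit of the signal peptidase, and Srprb, of the signal recognition particle receptor, rose by log2 fold changes of 0.55 and 0.45 (edgeR adjusted p = 6.8e-08 and 6.7e-07).

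Outside the ER, 9 of 16 cytosolic and mitochondrial heat shock genes (56.25%) were higher and 5 (31.25%) lower, against 29.0% and 29.9% of all genes, with a median of 0.11. Scaled by library size alone, 9 were higher and 2 lower, against 4346 and 3728 of all 13533 genes under that scaling. When any 1 library other than OEIRF7 replicate 3 was left out, 2 or 3 were lower. In the main fit, 2 of the 16 were higher and 0 lower past 1.5-fold as well, against 9.26% and 9.64% of all genes. Hspa1a, the inducible cytosolic Hsp70, rose from 17.7 ± 2.27 to 45.2 ± 9.92 CPM (log2 fold change 1.35, SE 0.127, edgeR adjusted p = 4.0e-07). It has a near-identical neighbour, Hspa1b, so its share of the reads is uncertain. Hspb8 and Hsp90aa1, a small heat shock protein and the inducible cytosolic Hsp90, rose by log2 fold changes of 0.53 and 0.32 (edgeR adjusted p = 3.2e-08 and 4.4e-06). Hsf1, the factor that drives heat shock genes, fell from 35.0 ± 2.02 to 29.4 ± 2.36 CPM (log2 fold change -0.26, edgeR adjusted p = 0.0029).

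Within the groups, the genes that varied most like 3 of the 10 were found by Pearson's r of log2 CPM, centred on the group means, over the 8 libraries and the 8897 genes of at least 10 CPM. With so few libraries, high values are reached by some of so many genes, and the values are a description. For Herpud1 these were Slc39a13 (r = 0.986), Usp54, Zfyve26, Sympk and Copa, for Herpud2 they were Ylpm1 (r = 0.996), Irf2 (r = 0.981), Brd3, Ado and Klhl18, and for Hspa5 they were Ascc3 (r = 0.987), Etnk1, Matr3, Ggact and Tmem47. None of these 15 genes is in the pathway lists. Among pairs of the 10 genes, Hspa5 and Hsp90b1 varied most alike within groups (r = 0.906), although only Hspa5 differed between the groups by the test. Herpud1 and Herpud2 had r = 0.586, and the lowest values were -0.767 for Atf3 with Atf6 and -0.737 for Herpud1 with Ddit3. The libraries share depth and preparation within each point, and no test was made of these correlations.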

How the data were processed

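Reads were trimmed by the authors with Trimmomatic, mapped with HISAT2 to GRCm38 and counted per gene with HTSeq-count, and the authors deposited these raw counts for 22274 genes. The authors also deposited FPKM from Cufflinks, normalized for gene length and depth. Versions and the strand setting are not given in the sources used here, and the kits for extraction and library preparation are not the same in labels and methods. A legend gives 3 biological replicates, and all 4 libraries per group were used. The 5 columns of the authors' own comparison (group means, log2 ratio, p-value, FDR) were not used. The letters nc had been replaced by GFP in 121 symbols, which were restored by identifier. Of all identifiers, 22219 were found in GENCODE M21, the source of the coordinates, and 3816 genes had no count.

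Counts went into edgeR 4.0.16 under R 4.3.3 (filterByExpr, which kept 13533 genes, TMM factors from 0.989 to 1.01, glmQLFit and glmQLFTest, Benjamini-Hochberg adjustment over all tested genes, calls at an adjusted p under 0.05). CPM used TMM-scaled library sizes, and intervals are 95% intervals of the fit. The fold limit of 1.5 is that of the study's methods. An exact two-sided permutation test of mean log2 CPM (prior count 2) was run beside single genes. With 4 against 4 libraries its smallest p is 0.029. Replicate pairs differed by more than counting noise, their chi-square divided by its degrees of freedom lying between 2.91 and 9.94.

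The members and lists were chosen with earlier results of these data known. Genes named from a list are the 4 with the largest change among those past the test, with a mean of at least 5 CPM and no overlap between groups, besides Ern1 and Eif2ak3. Exceptions are stated as singled out. Alternatives were DESeq2 1.42.0, library size alone, upper-quartile scaling, no filter beyond 1 count in total, at least 10 counts in every library, a replicate block, leaving out each library, and limma 3.58.1 on log2(FPKM + 1) and log2(FPKM + 0.1).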

Additional observations from a re-analysis of the deposited data

How the results depend on the processing

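Of 560 values of 35 named genes under 16 alternatives, 555 kept direction and side of the threshold, and 29 genes were called under all 16. Hspa5 (log2 fold change 0.60 to 0.66), Herpud2 (-0.79 to -0.69), Atf3 (0.68 to 0.80) and Xbp1 (0.15 to 0.21) were called under all 16, and Hsp90b1, Dnajb9, Atf4 and Herpud1 under none. Herpud1 lay between -0.00030 and 0.0396 when each library was left out, and turned direction without GFP replicate 2 (edgeR adjusted p = 0.995). Leaving out each library gave 3 to 4 of the 10 genes higher and 1 to 2 lower. With the replicate block 2 were lower, Atf6 being added (log2 fold change -0.09, edgeR adjusted p = 0.0421). The cause was not tested.

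For the pathway lists together, limma on log2(FPKM + 1) and log2(FPKM + 0.1) called 21 and 20 genes lower in place of 32, and leaving out each library gave 25 to 34. ER-associated degradation had 13 genes higher under library size alone and 5 lower under limma with either pseudocount. ER translocation had 2 genes lower under library size alone and under limma with either pseudocount, and 2 to 4 when each library was left out. The heat shock list had 2 genes lower under library size alone, 3 with at least 10 counts in every library, 3 and 2 under limma, and 2 to 5 when each library was left out. Library size alone moved the median log2 fold change of all genes from 0.0015 to 0.029, with 4346 of the 13533 genes higher and 3728 lower. The cause of the other shifts was not tested.

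Libraries with the same number were compared for the replicate block. Their deviations from the group means correlated by 0.0792, 0.0953, 0.138 and 0.104, so not all exceeded 0.1. The sources give no pairing beyond the shared number, and the main fit has no block. These values do not settle whether the libraries were paired. Every library correlated best with its own number, a hint from the data and not from the design. At 228 counts or more per library, the depth behind each of the 10 genes left SEs of at most 0.078 on the log2 scale.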
